A study of Mus musculus with 9 samples.

Results

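Fatty acids are the main fuel of the adult heart, and 34 genes that carry them from the blood to the respiratory chain were followed in 9 mouse hearts. The genes were chosen by name for what their products do, though with earlier results of these data known. Each was matched to the arrays through the accession of its probes, with Eci1 also known as Dci. All 34 were found, on 46 probes, and each is represented by its probe of highest mean level, among 27773 genes measured in the same way. They fall into 8 genes of uptake and activation, 3 of the storage droplet, 5 of the carnitine shuttle, 10 of the beta-oxidation spiral, 3 of the electron transfer flavoprotein system, 2 thioesterases and 3 of uncoupling and fuel choice.

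The study compared the hearts of 5 WT and 4 RORasg/sg mice and asked about the nuclear receptor RORa in cardiac hypertrophy. RORasg/sg mice carry 2 copies of staggerer, a deletion in Rora known for cerebellar ataxia, and they carry it in every cell of the body. By the labels all mice were male, of the strain C57BL/6 and 3 to 4 months old, were weaned at 3 weeks onto NIH31 diet and had no treatment. Total RNA of each heart (70 ng) was amplified, labelled with Cy3 and hybridised to its own single-colour Agilent array. The labels number the hearts within each group and do not say whether any were littermates. Feeding state and time of day at collection are not given in the sources used here. The p-values measure the spread between these 9 samples.

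As background, lipoprotein lipase on the capillary wall frees fatty acids from blood triglyceride, and CD36 and the transporters of the Slc27a family pass them into the cell, where small binding proteins carry them and acyl-CoA synthetases activate them. They are then stored in lipid droplets or handed to carnitine, cross the inner mitochondrial membrane and are shortened in the beta-oxidation spiral, whose electrons leave through the electron transfer flavoprotein. Many of these genes are known targets of the PPAR nuclear receptors, which bind a direct repeat of the letters AGGTCA, and ROR receptors are known to bind the same letters behind an A/T-rich stretch.

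Levels are given as log2 of the processed signal minus the log2 of that array's 75th percentile, so 0 is the 75th percentile of the array and 1 unit is a doubling. Differences are RORasg/sg minus WT on this scale. The 75th percentile itself lay between 436 and 684 intensity units on the WT arrays and between 264 and 773 on the RORasg/sg arrays. It was under 500 for WT heart 4 and RORasg/sg hearts 2, 3 and 4. After the scaling the median difference of all genes was 0.41, so each gene group is given beside that value. Rora itself differed by -4.13 (SE 0.61, limma adjusted p = 0.224) and all 4 RORasg/sg hearts read below all 5 WT hearts. Where its probe lies relative to the deletion is not given in the sources used here.

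RORasg/sg heart 1 stood apart from the others of its group. In that heart 42.6% of all genes lay below the range of the 5 WT hearts and 12.6% above it, against 17.9 to 20.9% below and 45.6 to 51.5% above in RORasg/sg hearts 2, 3 and 4. Markers of heart muscle cells, 12 of 12 measured, summed to 957 to 1172 times the 75th percentile in WT and 633 to 1265 times in RORasg/sg hearts, and 10 of the 12 had a lower mean in RORasg/sg. All 9 endothelial markers were measured and summed to 36.3 to 57.4 times in WT and 43.8 to 103 times in RORasg/sg, with a median difference of -1.22. White adipocyte markers, 10 of 11 measured, summed to 3.66 to 6.22 and 4.24 to 7.64 times. Their part in the results was not tested, and in whole hearts fewer cells of a type cannot be told apart from less RNA per cell.

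None of the 34 genes passed an adjusted p of 0.05 (limma with Benjamini-Hochberg adjustment over all genes), and 1 gene of the 27773 did, or 0.0036%. The smallest adjusted p of the 34 was 0.418. At an unadjusted p under 0.05, 1 gene, Lpl, was higher (4.94% of all genes) and 2, Cd36 and Ucp2, were lower (6.62% of all genes). A lower mean in RORasg/sg was seen for 16 of 34, against 33.4% of all genes, and 22 of 34 lay below the median of all genes. The median of the 34 differences was 0.07, which is -0.33 relative to all genes. Their median WT level was 4.96, against -1.93 for all genes, so most genes behind that reference read dimmer. With quantile normalization the relative value was -0.58, and the part of signal level was not tested. Ucp3 was the only one of the 34 whose groups did not overlap, with every RORasg/sg heart above every WT heart, as for 1.12% of all genes. None lay below every WT heart, against 1.71% of all genes.

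**Figure D1:**
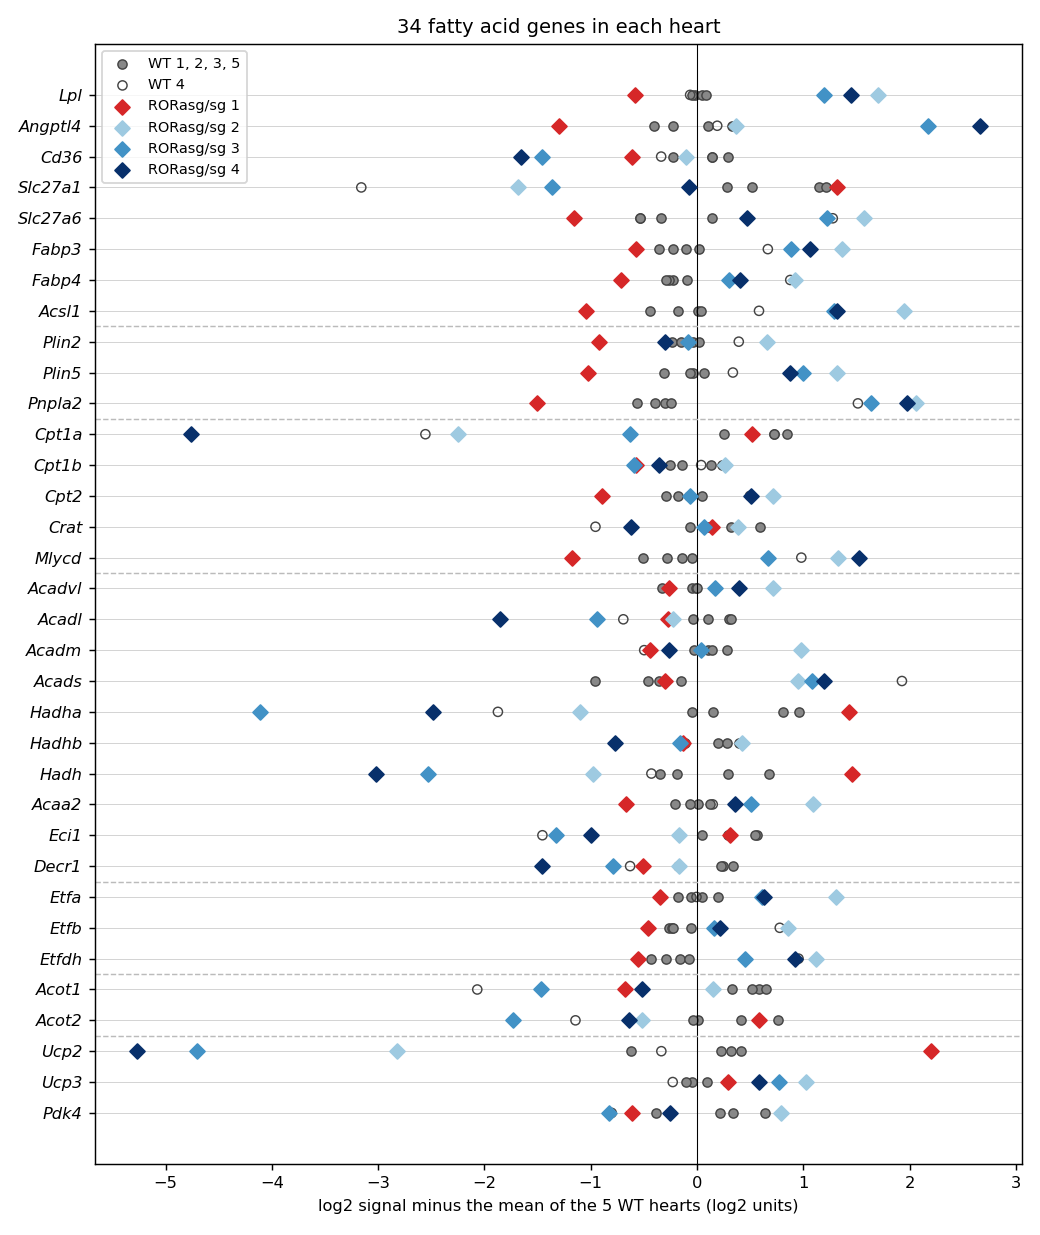
Level of each of the 34 genes in each heart, as log2 signal minus the mean of the 5 WT hearts (x axis, log2 units); circles are WT hearts, with WT 4 open, diamonds are RORasg/sg hearts, and dashed lines part the role groups. RORasg/sg heart 1 lies below the WT range for 17 genes (42.6% of all genes) and heart 2 above it for 21 (45.6% of all genes).

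The span of the 4 RORasg/sg hearts was wider than that of the 5 WT hearts for 29 of the 34 genes, against 82.7% of all genes. Heart 1 had 17 of the 34 below the WT range (42.6% of all genes) and 5 above it (12.6% of all genes). Heart 2 had 2 below and 21 above, against 17.9% and 45.6% of all genes. Heart 3 had 9 below and 9 above, against 19.2% and 48.7%, and heart 4 had 10 below and 12 above, against 20.9% and 51.5%. The genes above were 61.8% of the 34 in heart 2, 26.5% in heart 3 and 35.3% in heart 4. For 8 genes (Lpl, Angptl4, Fabp3, Acsl1, Plin5, Pnpla2, Acaa2 and Etfa) hearts 2, 3 and 4 lay above the WT range and heart 1 below it, a pattern that 16.7% of all genes had. Hadh and Ucp2 had the reverse, as did 2.15% of all genes.

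Among the genes of uptake and activation, 6 of 8 had a higher mean in RORasg/sg, and the group's median difference was 0.60, or 0.20 relative to all genes. Lpl encodes the lipase that frees fatty acids from blood lipoproteins. Lpl levels were 6.72, 6.78, 6.69, 6.67 and 6.81 over the WT hearts in order of number, and 6.15, 8.43, 7.93 and 8.19 over the RORasg/sg hearts. The WT values spanned only 0.14, while RORasg/sg hearts 2, 3 and 4 read above all of them and heart 1 below all of them. The difference was 0.94 (SE 0.39, limma adjusted p = 0.418), a 1.92-fold ratio of the geometric means. Within slide 1, which held WT hearts 1 and 2 and RORasg/sg hearts 1 and 2, it was 0.54, and within slide 2, which held hearts 3 and 4 of both groups, it was 1.38. Angptl4, whose product inhibits the lipase, lay above the WT range in the same 3 hearts and below it in heart 1, and differed by 0.98 (SE 0.70, limma adjusted p = 0.443). Its sign was not the same on both slides, with -0.52 within slide 1 and 2.27 within slide 2.

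Cd36, the membrane carrier of long-chain fatty acids, had the smallest p of the 34. Cd36 read 4.79, 5.16, 5.16, 4.68 and 5.31 from WT heart 1 through 5, against 4.40, 4.92, 3.56 and 3.37 from RORasg/sg heart 1 through 4. RORasg/sg hearts 1, 3 and 4 read below every WT heart and heart 2 lay inside the WT range. The mean was 5.02 ± 0.27 (SD, n = 5) in WT and 4.06 ± 0.73 (SD, n = 4) in RORasg/sg. The difference of -0.96 (SE 0.37) had a limma adjusted p of 0.418. An exact two-sided permutation test over the hearts gave p = 0.0476, where 0.0159 is the smallest it can give. Cd36 was picked from the 34 by these same values, and the permutation p is not adjusted for that. Lpl and Ucp2, the others with an unadjusted limma p under 0.05, had permutation p of 0.0952 and 0.111. The sign of Cd36 was negative under all 26 alternative settings, with a range of -1.53 to -0.31, and was the same in RORasg/sg heart 1 as in hearts 3 and 4.

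The promoter of Cd36 is shown because it is one of 4 promoters of these genes that hold a direct repeat of AGGTCA, the kind of element that PPARs bind. The search covered RefSeq promoters of GRCm38.p6, from 250 bases before to 50 after the start. It found 26 of the 34 genes, with 30 promoters, among 32851 in all. The repeat is 2 copies of AGGTCA in one orientation with 1 base between them, on either strand, with at most 2 mismatches in 12 fixed bases, and 3.86% of all promoters held one. Besides Cd36 it was found at Etfa, Plin2 and Ucp3. A single AGGTCA without mismatch was in 8 of the 30 promoters, against 16.3% of all, and TAGGTCA, the core of an ROR element and an overlapping match, in those of Acadvl and Plin2, against 2.61%. A match describes the letters and does not show that a receptor binds there. In the sequence the repeat is in capitals, on the strand opposite to the gene, with 2 mismatches and beginning at base -63 relative to the start (chr5:17835847-17836146, minus strand, GRCm38.p6).
Cd36: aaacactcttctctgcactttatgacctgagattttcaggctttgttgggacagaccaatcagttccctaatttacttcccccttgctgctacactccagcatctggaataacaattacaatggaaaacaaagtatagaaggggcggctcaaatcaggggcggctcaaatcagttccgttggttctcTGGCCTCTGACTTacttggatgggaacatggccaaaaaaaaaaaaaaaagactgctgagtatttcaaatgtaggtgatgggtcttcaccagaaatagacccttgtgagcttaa

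Fatty acids inside the cell are bound by the small carriers Fabp3, the heart form, and Fabp4, the form of fat cells and capillary endothelium. Fabp4 levels were 6.67, 6.63, 6.60, 7.77 and 6.80 over the WT hearts in order of number, and 6.18, 7.81, 7.19 and 7.30 over the RORasg/sg hearts. WT heart 4 read above the other WT hearts and among the RORasg/sg hearts 2, 3 and 4, so the groups overlapped. Fabp4 differed by 0.23 (SE 0.35) and Fabp3 by 0.69 (SE 0.37), with limma adjusted p of 0.690 and 0.418. The sign of Fabp4 turned negative under quantile normalization (-0.19) and without scaling (-0.34).

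Acsl1 encodes the main acyl-CoA synthetase of heart, which traps fatty acids as their CoA esters. Acsl1 read 6.45, 6.64, 6.19, 7.21 and 6.67 from WT heart 1 through 5, against 5.58, 8.58, 7.91 and 7.94 from RORasg/sg heart 1 through 4. Hearts 2, 3 and 4 of RORasg/sg read above every WT heart and heart 1 below every one. The difference was 0.88 (SE 0.50, limma adjusted p = 0.418). Of the transporters, Slc27a1 differed by -0.45 (SE 0.91) with WT values from -1.90 to 2.48, and Slc27a6 by 0.52 (SE 0.64). The Slc27a6 probe was well above background on 2 of 5 WT and 2 of 4 RORasg/sg arrays only.

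In the storage droplet group, Plin5 and Pnpla2 had higher means in RORasg/sg and Plin2 a lower one (-0.16, SE 0.40). Plin5 coats droplets of oxidative tissues and tethers them to mitochondria. Plin5 levels were 5.82, 5.79, 5.55, 6.19 and 5.93 over the WT hearts in order of number, and 4.83, 7.17, 6.85 and 6.73 over the RORasg/sg hearts. Its difference was 0.54 (SE 0.42, limma adjusted p = 0.465). Pnpla2 encodes ATGL, which takes the first fatty acid off stored triglyceride. Pnpla2 read 4.95, 5.05, 4.78, 6.86 and 5.10 from WT heart 1 through 5, against 3.84, 7.41, 6.99 and 7.32 from RORasg/sg heart 1 through 4. WT heart 4 read 6.86, close to RORasg/sg heart 3, and the other WT hearts lay between 4.78 and 5.10. The difference was 1.04 (SE 0.70, limma adjusted p = 0.429), and 1.42 without WT heart 4. For both genes RORasg/sg heart 1 was the lowest of the 9 hearts and the other 3 were the highest.

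In the carnitine shuttle, 4 of 5 genes lay below the median of all genes and the group's median was -0.41 relative to it. Cpt1a and Cpt1b encode the liver and muscle forms of the enzyme that joins fatty acids to carnitine at the outer membrane, the controlled step of entry. Cpt1a levels were 1.81, 2.41, 2.29, -0.99 and 2.29 over the WT hearts in order of number, and 2.08, -0.69, 0.94 and -3.20 over the RORasg/sg hearts. WT heart 4 read well under the other WT hearts, and RORasg/sg hearts 1, 2 and 3 read above it. The difference was -1.78 (SE 1.02, limma adjusted p = 0.418), beside an SD of 1.45 over the WT and 2.29 over the RORasg/sg hearts. It was -0.79 without RORasg/sg heart 4 and -2.42 without WT heart 4. Cpt1b read 6.76, 7.15, 6.88, 7.06 and 7.25 from WT heart 1 through 5, against 6.44, 7.28, 6.42 and 6.66 from RORasg/sg heart 1 through 4. Hearts 1, 3 and 4 of RORasg/sg read below every WT heart and heart 2 above every one. The Cpt1b difference was -0.32 (SE 0.24, limma adjusted p = 0.462), and its sign was negative under all 26 alternatives.

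The other shuttle genes showed smaller or less steady differences. Cpt2, which returns the fatty acid to CoA inside, differed by 0.07 (SE 0.36), and Crat, which exchanges acetyl groups with carnitine, by -0.01 (SE 0.39). Mlycd removes malonyl-CoA, the inhibitor of Cpt1, and differed by 0.59 (SE 0.55), with RORasg/sg heart 1 below the WT range and hearts 2 and 4 above it.

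The genes of the beta-oxidation spiral lay low as a group: 9 of 10 were below the median of all genes and 6 of 10 had a lower mean in RORasg/sg, with a group median of -0.35, or -0.76 relative to all genes. The count was also 9 under quantile normalization and normexp background correction. Median scaling and no scaling shift every gene alike and cannot change it. It was 9 as well without RORasg/sg heart 1 and without WT heart 4, 10 within slide 2, but 3 within slide 1 and 4 over the 5 brighter arrays. The spiral's median WT level was 5.16, against -1.93 for all genes, and the part of signal level was not tested. Heart muscle markers had a median of -0.96 relative to all genes. The order over the RORasg/sg hearts, relative to all genes, was 0.12, -0.42, -1.13 and -1.64 for the spiral and 0.37, -0.73, -1.81 and -1.87 for the muscle markers in hearts 1 to 4. Endothelial markers gave 1.04, -1.41, -1.76 and -2.61 and the 4 measured of 8 erythroid markers 1.12, -0.99, -2.02 and -1.56. In each of these lists heart 1 read highest, as it did for macrophage and skeletal muscle markers. It did not for smooth muscle, fibroblast or adipocyte markers, and white adipocyte markers gave -0.044, 0.0008, -0.018 and 0.17. Single markers also differed, since 4 of 9 endothelial and 2 of 4 erythroid markers had a higher mean in RORasg/sg. Erythroid markers summed to 24.5 to 57.7 times the 75th percentile in WT and 27.3 to 65.5 times in RORasg/sg. The part of these cell types in the spiral's values was not tested.

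**Figure D2:**
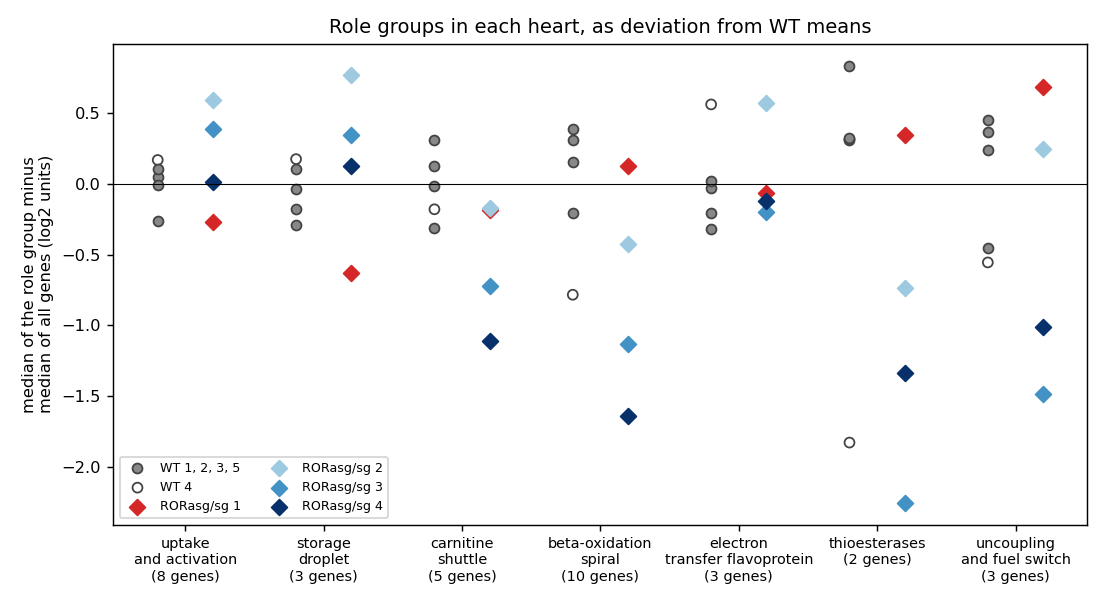
Median deviation from the WT means over the genes of each role group, minus the same median over all 27773 genes (y axis, log2 units), 1 point per heart; circles are WT hearts, with WT 4 open, and diamonds RORasg/sg hearts. For the beta-oxidation spiral RORasg/sg hearts 3 and 4 lie at -1.13 and -1.64, below all 5 WT hearts.

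Of the first enzymes of the spiral, the acyl-CoA dehydrogenases, the long-chain form Acadl had the smallest p. Acadl levels were 5.42, 5.76, 5.57, 4.77 and 5.78 over the WT hearts in order of number, and 5.18, 5.23, 4.52 and 3.61 over the RORasg/sg hearts. RORasg/sg hearts 3 and 4 read below every WT heart, and hearts 1 and 2 lay between WT heart 4 and the other WT hearts. The difference was -0.83 (SE 0.39, limma adjusted p = 0.418), negative under all 26 alternatives. Its size was -0.48 without RORasg/sg heart 4, -0.39 within slide 1 and -1.10 within slide 2. The very long-chain form Acadvl differed by 0.25 (SE 0.26), the medium-chain form Acadm by 0.08 (SE 0.34) and the short-chain form Acads by 0.73 (SE 0.64). The Acads probe was well above background on 2 of 5 WT and all 4 RORasg/sg arrays.

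Hadha and Hadhb encode the alpha and beta subunits of the mitochondrial trifunctional protein, which carries out the later steps on long chains. Hadha read 2.64, 2.84, 3.64, 0.81 and 3.50 from WT heart 1 through 5, against 4.11, 1.59, -1.42 and 0.20 from RORasg/sg heart 1 through 4. Heart 1 of RORasg/sg was the highest of all 9 and hearts 3 and 4 were the lowest, with heart 2 inside the WT range. Hadha differed by -1.57 (SE 0.96, limma adjusted p = 0.421), which was -2.57 without heart 1 and 0.11 within slide 1. Hadhb levels were 5.94, 6.25, 6.34, 5.29 and 6.45 over the WT hearts in order of number, and 5.92, 6.48, 5.89 and 5.28 over the RORasg/sg hearts. Its groups overlapped and it differed by -0.16 (SE 0.33, limma adjusted p = 0.762). The RORasg/sg hearts thus spanned 5.54 for Hadha and 1.20 for Hadhb.

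The sequence between these genes is shown because it lies upstream of both, which run from it in opposite directions. Their RefSeq promoters overlap over 228 bases (chr5:30155003-30155230, GRCm38.p6, printed on the plus strand, that of Hadhb), which are 57% G or C and hold no AGGTCA on either strand. Nothing is set in capitals.
Hadha-Hadhb: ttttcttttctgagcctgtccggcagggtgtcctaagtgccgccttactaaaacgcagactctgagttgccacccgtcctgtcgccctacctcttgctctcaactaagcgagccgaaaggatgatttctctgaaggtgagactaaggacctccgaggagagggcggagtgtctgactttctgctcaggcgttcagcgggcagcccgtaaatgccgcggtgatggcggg

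Hadh encodes the medium- and short-chain hydroxyacyl-CoA dehydrogenase. Like Hadhb and Angptl4, it was chosen for mention after its values were seen. Hadh read -0.17, -0.33, 0.70, -0.40 and 0.32 from WT heart 1 through 5, against 1.48, -0.95, -2.51 and -3.00 from RORasg/sg heart 1 through 4. Hearts 2, 3 and 4 of RORasg/sg read below every WT heart and heart 1 above every one, for a difference of -1.27 (SE 0.79, limma adjusted p = 0.422). Within slide 1 it was 0.51 and within slide 2 -2.90. Decr1 encodes the reductase that clears double bonds of polyunsaturated chains. Decr1 levels were 3.18, 3.60, 3.59, 2.73 and 3.70 over the WT hearts in order of number, and 2.86, 3.20, 2.57 and 1.91 over the RORasg/sg hearts. RORasg/sg hearts 3 and 4 lay below every WT heart and hearts 1 and 2 above WT heart 4. Decr1 differed by -0.73 (SE 0.40, limma adjusted p = 0.418), negative under all 26 alternatives. The isomerase Eci1 differed by -0.55 (SE 0.49) and the thiolase Acaa2, which splits off acetyl-CoA, by 0.32 (SE 0.31).

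Electrons of the dehydrogenases pass to the electron transfer flavoprotein, of which Etfa and Etfb encode the subunits, and on to ubiquinone through the product of Etfdh. All 3 genes had a higher mean in RORasg/sg under the 75th percentile and a lower one with no scaling, and the group's median was 0.08 relative to all genes. Etfa read 5.44, 5.66, 5.56, 5.61 and 5.81 from WT heart 1 through 5, against 5.27, 6.93, 6.23 and 6.25 from RORasg/sg heart 1 through 4. RORasg/sg hearts 2, 3 and 4 read above every WT heart and heart 1 below. Etfdh levels were 3.49, 3.63, 3.76, 4.87 and 3.85 over the WT hearts in order of number, and 3.37, 5.04, 4.37 and 4.84 over the RORasg/sg hearts. WT heart 4 was high as well, so the groups overlapped. The differences were 0.55 for Etfa (SE 0.32), 0.49 for Etfdh (SE 0.43) and 0.19 for Etfb (SE 0.31), with limma adjusted p from 0.418 to 0.6996.

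The thioesterases split acyl-CoA back to free fatty acid, Acot1 in the cytosol and Acot2 in mitochondria. Their coding sequences are close copies, so each probe may read both. Acot1 read 3.99, 4.24, 4.31, 1.60 and 4.18 from WT heart 1 through 5, against 2.98, 3.81, 2.20 and 3.14 from RORasg/sg heart 1 through 4. Acot2 levels were -3.12, -3.53, -2.78, -4.68 and -3.57 over the WT hearts in order of number, and -2.95, -4.05, -5.26 and -4.17 over the RORasg/sg hearts. In each gene WT heart 4 read below the other WT hearts, and the groups overlapped. The differences were -0.63 (SE 0.59) and -0.57 (SE 0.55), with limma adjusted p of 0.522 and 0.534, and the sign of Acot2 turned under normexp background correction (0.14).

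Ucp2 and Ucp3, uncoupling proteins of the inner membrane, are neighbours on one chromosome and read in opposite directions on the probes used. Ucp2 read -0.48, 0.55, 0.46, -0.20 and 0.36 from WT heart 1 through 5, against 2.34, -2.68, -4.56 and -5.13 from RORasg/sg heart 1 through 4. RORasg/sg heart 1 was the highest of the 9 and hearts 2, 3 and 4 were the lowest, with heart 4 not well above background. The difference of -2.65 (SE 1.21, limma adjusted p = 0.418) was the largest of the 34. It was -4.26 without heart 1, -0.20 within slide 1 and -4.98 within slide 2.

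Ucp3 levels were -3.10, -2.95, -3.15, -3.28 and -2.76 over the WT hearts in order of number, and -2.76, -2.02, -2.28 and -2.46 over the RORasg/sg hearts. Every RORasg/sg heart read above every WT heart, with a gap of 0.0071 between RORasg/sg heart 1 and WT heart 5. The mean was -3.05 ± 0.20 (SD, n = 5) in WT and -2.38 ± 0.31 (SD, n = 4) in RORasg/sg. The difference of 0.67 (SE 0.37) had a limma adjusted p of 0.418. Exact permutation over the hearts (two-sided) gave p = 0.0159, as small as these groups allow. Groups of these sizes that do not overlap always give this value. The permutation p thus restates that the groups did not overlap, and it is not adjusted for the 34 genes looked at. The groups stayed apart with median scaling and overlapped with quantile normalization, normexp background correction and no scaling. The sign of the Ucp3 difference was positive under all 26 alternatives, from 0.10 to 1.02. Pdk4, the kinase that turns off pyruvate dehydrogenase when fatty acids are burned, differed by -0.22 (SE 0.39, limma adjusted p = 0.721), with RORasg/sg heart 2 above the WT range, heart 3 below and hearts 1 and 4 inside.

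The Ucp3 promoter is shown because its gene was the only one with separate groups. The repeat in capitals, on the gene's own strand, has 2 mismatches and begins at base -51 relative to the start, and the promoter holds 2 copies of AGGTCA in all (chr7:100472741-100473040, plus strand, GRCm38.p6).
Ucp3: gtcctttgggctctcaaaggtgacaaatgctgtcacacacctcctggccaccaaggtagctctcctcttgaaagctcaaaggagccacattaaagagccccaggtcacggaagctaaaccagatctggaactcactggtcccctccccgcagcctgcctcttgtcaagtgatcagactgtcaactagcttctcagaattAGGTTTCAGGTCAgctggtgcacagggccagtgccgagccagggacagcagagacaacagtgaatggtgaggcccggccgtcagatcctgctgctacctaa

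Further probes of the same genes often gave another sign. Of the 34 genes, 25 had 1 probe and 9 had several, and in 7 of these 9 a further probe had the opposite sign, as in 46.0% of 6335 such genes overall. The further probes lay a median of 1.80 from the probe used, against 0.863 over all genes. Lpl gave 0.94 on the probe used and -0.34 (SE 0.45) on the other. Acsl1 gave 0.88, -1.43 (SE 0.54) and -0.10 (SE 0.34). Ucp2 gave -2.65 on the probe used and 1.07 (SE 0.47) and 0.98 (SE 0.55) on the others. The sign of these genes thus depended on the probe read. By the rule of choice, every further probe had a lower mean level. For Ucp2 it was -4.43 and -5.06, against -1.04 for the probe used. The latter further probe was well above background on 2 of 5 WT and 3 of 4 RORasg/sg arrays. For Pnpla2 it was -2.29 against 5.81. Pnpla2 turned from 1.04 to -0.66 (SE 0.73), Etfdh from 0.49 to -2.12 (SE 0.90) and Cpt1a from -1.78 to 0.13 (SE 0.52). Fabp4 gave 0.23, 0.76 (SE 0.57) and -0.30 (SE 0.58). Cpt1b and Decr1 kept their sign, with -1.39 (SE 0.89) and -3.39 (SE 1.11) on their other probes. The transcript region each probe reads is not given in the sources used here.

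**Figure D3:**
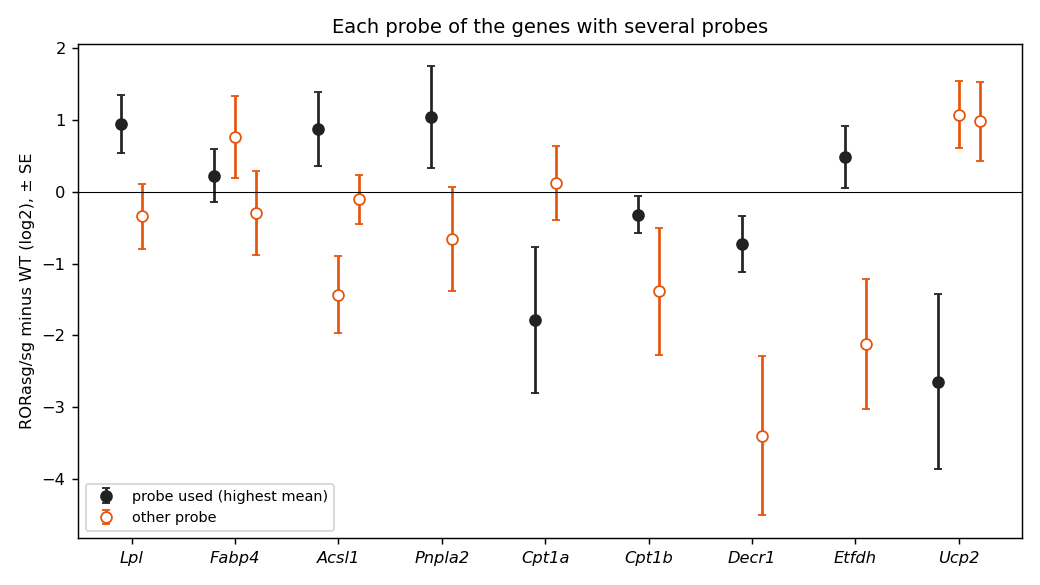
Difference RORasg/sg minus WT (y axis, log2) for every probe of the 9 genes that have several; filled points are the probe used (highest mean), open points the others, and bars are SE. In 7 of the 9 genes the points lie on both sides of 0.

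Calls on these genes turned on RORasg/sg heart 1. Without it 14 of the 34 passed the threshold, 10 higher (28.5% of all genes) and 4 lower (8.89% of all genes). Both counts lie near those shares, so the calls cannot be read as particular to these genes. Those higher were Lpl (1.45), Angptl4 (1.74), Fabp3 (1.10), Acsl1 (1.52), Plin5 (1.06), Pnpla2 (1.89), Mlycd (1.18), Acaa2 (0.65), Etfa (0.85) and Ucp3 (0.80). Those lower were Cd36 (-1.07), Hadha (-2.57), Hadh (-2.18) and Ucp2 (-4.26). By role, 5 were of uptake and activation, 2 of the storage droplet, 3 of the spiral, 2 of uncoupling and 1 each of the shuttle and the flavoprotein.

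Over the 5 brighter arrays, where heart 1 is the only RORasg/sg heart and is assumed to vary like the WT hearts, 9 of the 34 passed, with Ucp2 higher (1.29% of all genes) and 8 lower (2.99% of all genes). The genes that passed in both this fit and the fit without heart 1 were Lpl, Angptl4, Acsl1, Plin5, Pnpla2, Mlycd and Ucp2. All of them had opposite signs in these fits, as had others of the 34 that did not pass in both. Lpl, for example, read -0.60 over the brighter arrays and Pnpla2 -1.13. These fits share no RORasg/sg heart. Of all genes, 16.7% had hearts 2, 3 and 4 above the WT range and heart 1 below it, and 2.15% the reverse. These patterns are not the same as passing in both fits, whose share over all genes was not computed. The opposite signs thus cannot be read as particular to these genes. With array weights, which gave heart 1 the lowest weight (0.101), 24 of the 34 passed, against 54.8% of all genes. Array brightness and heart 1 moved together here, since the other RORasg/sg arrays were all dim, and the part of brightness was not tested apart from the heart.

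**Figure D4:**
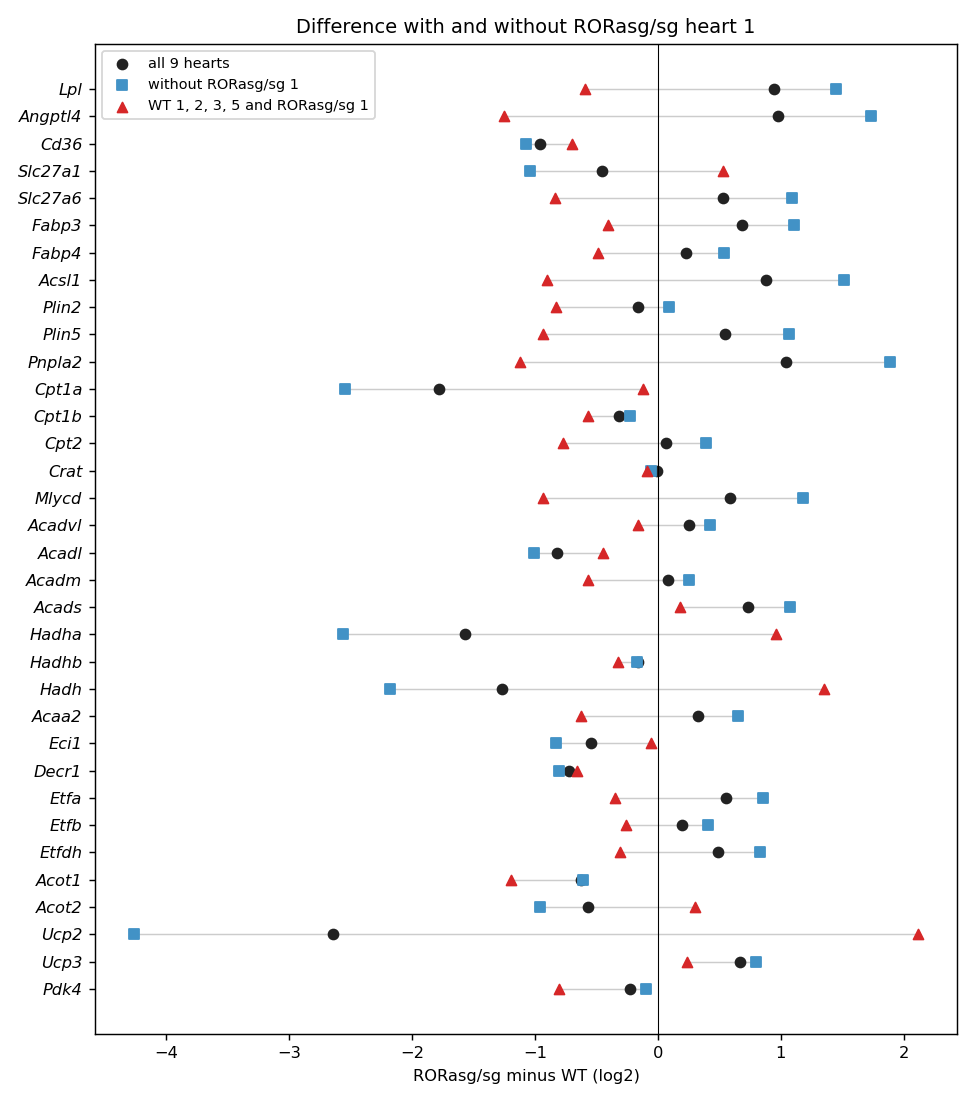
Difference RORasg/sg minus WT (x axis, log2) of each of the 34 genes over all 9 hearts (circles), without RORasg/sg heart 1 (squares) and over the 5 brighter arrays, whose only RORasg/sg heart is heart 1 (triangles). Squares and triangles lie on opposite sides of 0 for Lpl, Acsl1, Pnpla2, Hadha, Hadh and Ucp2, and on the same side for Cd36, Acadl, Decr1 and Ucp3.

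The wider pathway was followed through 101 further genes, of which 94 were measured. None passed the adjusted threshold, while 3 higher and 9 lower genes had an unadjusted p under 0.05 (4.94% and 6.62% of all genes), and the median difference was 0.10, or -0.31 relative to all genes. Groups that do not overlap, as in 4 of the genes named next, were found for 1.12% of all genes in the higher and 1.71% in the lower direction. In supply and activation, Gpihbp1, which anchors lipoprotein lipase to the capillary wall, read 2.89 to 3.80 in WT and 4.04 to 5.14 in RORasg/sg hearts. Its groups did not overlap, RORasg/sg heart 1 included, and it differed by 1.004 (SE 0.36, limma adjusted p = 0.407). Lrp1, a receptor for lipoprotein remnants, read -0.64 to -0.25 in WT and 0.63 to 1.09 in RORasg/sg, a difference of 1.32 (SE 0.39, limma adjusted p = 0.375).

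Among storage and lipolysis genes, Abhd5, the activator of ATGL, differed by -2.36 (SE 0.72, limma adjusted p = 0.378). It read 0.27 to 2.07 in WT, 1.45 in RORasg/sg heart 1 and -2.44 to -0.95 in hearts 2 to 4. Mgll, which finishes triglyceride breakdown, differed by 0.89 (SE 0.48). In mitochondrial oxidation the ketone body enzyme Bdh1 read 3.05 to 4.31 in WT and 1.31 to 2.69 in RORasg/sg, with no overlap and a difference of -1.46 (SE 0.43, limma adjusted p = 0.375). The acyl-CoA thioesterase Acot7 differed by -0.63 (SE 0.26).

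In the peroxisomal list, Pex11a, a factor of peroxisome division, read -0.25 to 1.07 in WT and -2.99 to -0.55 in RORasg/sg, with no overlap and a difference of -1.80 (SE 0.56, limma adjusted p = 0.384). The peroxisomal thioesterase Acot8 differed by -2.01 (SE 0.72). Of the genes around pyruvate dehydrogenase, Dlat, a core subunit of the complex, differed by -0.68 (SE 0.37) and Mpc1, part of the mitochondrial pyruvate carrier, by 0.94 (SE 0.55). Mpc1 read 3.31 in RORasg/sg heart 1 and 5.63 to 6.18 in hearts 2 to 4 against 3.76 to 5.22 in WT, so heart 1 lay below the WT range and the others above it.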

How the data were processed

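Total RNA of 9 hearts (5 WT, 4 RORasg/sg) was read on single-colour Agilent arrays with Feature Extraction 12.0.0.7, per the file headers. The deposited intensity of each spot has its background subtracted and carries no scaling from array to array. The series' deposited value table holds the same intensity. Outlier-flagged spots were dropped (758 over 9 arrays), none was saturated, and spots of 1 probe were averaged. Values are log2 of this signal minus each array's 75th percentile over non-control spots. A probe was kept if it was well above background on 4 or more arrays (36402 of 41174 were). They were named by accession through a GRCm38.p6 RefSeq table, which matched 28223 probes. The test was limma (version 3.58.1, under R 4.3.3), using lmFit and then eBayes(trend = TRUE). Its p-values were adjusted by Benjamini-Hochberg over 27773 genes, with a threshold of 0.05. The code was checked on simulated data with independent noise and the WT spread in both groups. That check does not cover the wider spread of the RORasg/sg hearts or heart 1. Exact permutation tests served single values. Figures used matplotlib in Python.

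The genes and lists were chosen with earlier results of these data known. Values per heart are given for the 2 genes of each role group with the smallest p (3 in the spiral), and for genes whose groups do not overlap or whose probes differ in sign. Of the further pathway lists, the 2 genes with the smallest p are named. Same-numbered hearts' deviations from their group means correlated at 0.05, -0.01, -0.33 and 0.39. The main test did not treat hearts as paired, and these values cannot exclude that they were. The alternatives covered scaling, background correction, the probe filter and probe rule, slide, replicate number, eBayes options, array weights, brightness and each heart left out. The number of arrays limits the precision.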

Additional observations from a re-analysis of the deposited data

Results flagged for a closer look

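Over the 34 genes, each group of hearts was checked for a highest or lowest heart far from its neighbour relative to the group's range. Of 68 groups checked, 11 had one, where chance gives about 1 in 20 groups if genes are independent. WT heart 4 was that heart in 9 of the 11. The genes were read on the same arrays and are not independent. The check was not run over all genes, so the count cannot be read as particular to these genes.

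WT heart 4 was the lowest WT heart for Slc27a1 (-1.90, the next at 1.54), Cpt1a (-0.99, the next at 1.81), Eci1 (3.45, the next at 4.95) and Acot1 (1.60, the next at 3.99). It was the highest WT heart for Fabp4 (7.77, the next at 6.80), Pnpla2 (6.86, the next at 5.10), Acads (-3.56, the next at -5.64), Etfb (7.78, the next at 6.94) and Etfdh (4.87, the next at 3.85). Its array was the only WT array with a 75th percentile under 500.

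RORasg/sg heart 1 was the lowest of its group for Pnpla2 (3.84, the next at 6.99) and Acads (-5.79, the next at -4.54). The Acads probe was well above background on 2 of the 5 WT arrays.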

How the results depend on the processing

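Over 26 alternatives, 23 called none of the 34 genes, with a smallest adjusted p of 0.141 (limma, within slide 2). The exceptions were array weights (24), the 5 brighter arrays (9) and leaving out RORasg/sg heart 1 (14), and over the hearts left out in turn the count ran from 0 to 14. The count of genes with a lower mean, 16, became 26 without scaling, 28 with brightness as a covariate and 27 over the 5 brighter arrays, while the share of all genes, 33.4%, became 59.6%, 49.1% and 70.9%. Leaving out the scaling shifts every gene alike, and the median of all genes went from 0.41 to -0.17. The median relative to all genes, -0.33, became -0.58 with quantile normalization, 0.15 within slide 1, -0.61 within slide 2 and -0.57 with array weights, and ran from -0.41 to -0.10 over the hearts left out, the latter without RORasg/sg heart 4. With the replicate number as a block, 0 genes were called, 15 had a lower mean and the median was -0.26, so this block changed no call. It covered the 8 hearts whose number both groups share.

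Of all 34 genes, 10 turned sign without scaling, by the shift just given, and 7 within slide 1. Among the 17 genes named by rule, signs turned as follows. Other than without scaling, the cause was not tested. Without scaling, Fabp4 read -0.34, Plin5 -0.030, Etfa -0.021 and Etfdh -0.087. Quantile normalization gave Fabp4 -0.19, normexp gave Acot2 0.14, and the mean over probes gave Acsl1 -0.22 and Etfdh -0.82. With brightness as a covariate, Fabp4 read -0.36, Acsl1 -0.092, Plin5 -0.20, Pnpla2 -0.37, Etfdh -0.20 and Acot2 0.025. Within slide 1 Hadha read 0.11, and outside the 17 genes Hadh 0.51, Angptl4 -0.52, Hadhb 0.10, Pdk4 0.18, Plin2 0.0019 and Crat 0.25. The 5 brighter arrays gave Lpl -0.60, Fabp4 -0.49, Acsl1 -0.90, Plin5 -0.94, Pnpla2 -1.13, Hadha 0.96, Etfa -0.35, Etfdh -0.31, Acot2 0.30 and Ucp2 2.12. The 4 dimmer arrays gave Fabp4 -0.34, Cpt1a 0.0085, Etfdh -0.12, Acot1 1.46 and Acot2 0.18. Over the hearts left out, Fabp4 ran from -0.0030 to 0.54. Signal near background limits Slc27a6, Acads and Ucp2, which were not well above background on every array. Acot2 and Ucp3 were, but they too read low, at 10.2 to 100 and 45.0 to 115 intensity units.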
